A study of Homo sapiens with 2 samples.

Results

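The 39 HOX genes of the HOXA, HOXB, HOXC and HOXD clusters were examined among the 55797 genes for which FPKM values were deposited. Members were chosen by symbol alone, as HOX followed by the cluster letter and a paralogue number, and all 39 had status OK in both libraries. RNA-seq compared 1 library of live cells with 1 library of processed cells, both from the human embryonic stem cell line H1, an established line, differentiated to Stage 6 of a pancreatic protocol. Live cells were taken unfixed to RNeasy extraction, and processed cells were fixed in 4% paraformaldehyde, permeabilized, antibody stained and put through the sorter with every cell kept before a modified RecoverAll extraction. Stage 6 cultures are mixtures in which insulin-expressing cells are present. The 2 libraries also differ in extraction kit, and the sources used here do not say whether they came from 1 culture. With 1 library per group, no difference below has a replicate check in these RNA-seq data and no test was possible. The paper also compared live and processed Stage 6 cells on replicate microarrays, which were not used here, and reported no gene that differed consistently. It reported a small rise in RNA-seq coverage bias toward the downstream end of transcripts after processing.

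HOX genes encode homeodomain transcription factors that give cells along the head-to-tail axis their regional identity. Genes of a cluster lie in the order in which they are used: low paralogue numbers, at the 3′ end, are switched on early and in anterior regions such as the hindbrain and the foregut, and high numbers act late and posteriorly, in the tail, the hindgut and the limb tips. Retinoic acid activates the 3′ genes, and HOX proteins bind DNA together with PBX and MEIS partners. PDX1, which specifies the pancreas, is itself a homeobox gene of the related ParaHox group.

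Values are FPKM, fragment counts scaled to transcript length and library depth, so levels can be compared between genes. The range after each value is the lower and upper bound deposited with it, which describes that library alone; the level of the bounds is not stated. Differences are log2((processed FPKM + 1) / (live FPKM + 1)), and the range after a log2 ratio sets the bounds of the libraries against each other. A gene was counted as detected at 1 FPKM or more and as past 2-fold at a log2 ratio above 1 or below -1. From the steps of low values, 1 fragment on 1 kb of transcript was worth 0.01002 FPKM in live cells against 0.0107 FPKM in processed cells. FPKM summed over all genes to 510713 and 499398.

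HOX RNA of the culture came from the 3′ ends of 3 clusters. In live cells 10 of the 39 members were detected and in processed cells 9, against 28.7% and 28.6% of all genes. They included HOXA2 to HOXA5, HOXB1 to HOXB3, HOXC4 and HOXC5, and 9 of the 10 were detected in both libraries. All 10 belong to the 15 members with paralogue numbers 1 to 5. Among the 24 members numbered 6 to 13, the highest value in either library was 0.535 FPKM. Across the 39 members, Spearman's rho between paralogue number and FPKM was -0.79 in live and -0.72 in processed cells, a description over genes that share clusters and libraries. The HOXD cluster had no detected member.

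**Figure D1:**
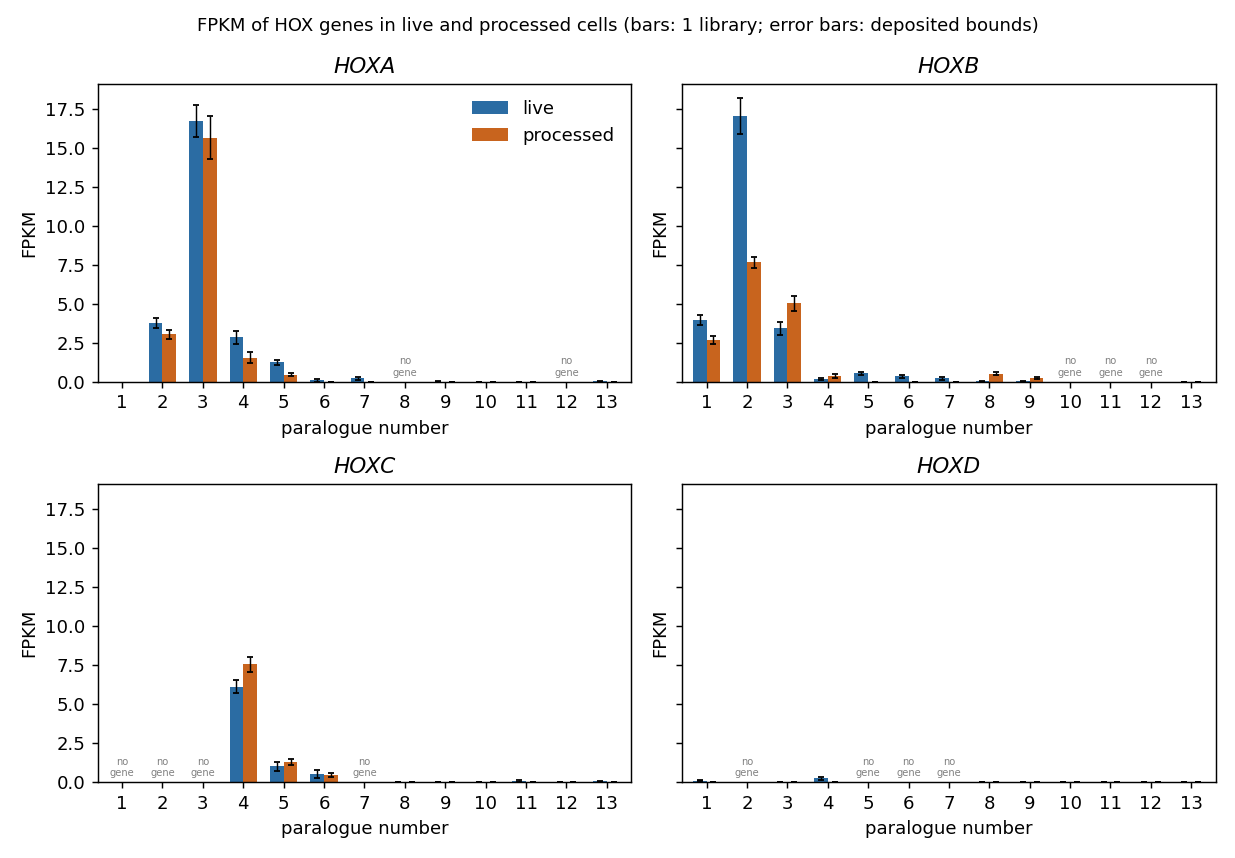
FPKM (y axis) of 38 HOX genes by paralogue number (x axis) in 4 panels for the clusters, with 1 bar per library, live in blue and processed in orange, and the deposited bounds as error bars. Levels above 1 FPKM sit at paralogue numbers 1 to 5 of HOXA, HOXB and HOXC, and HOXD bars are near 0.

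The paralogue 1 genes act earliest in the hindbrain. HOXB1 (chr17:46605888-46608359, minus strand, GRCh37/hg19), which sets the identity of the fourth hindbrain segment, had 3.97 FPKM (3.67 to 4.26) in live cells against 2.71 FPKM (2.46 to 2.96) in processed cells. Its log2 ratio was -0.42 (-0.60 to -0.24), and the bounds were separate with the live library higher. HOXD1, of the same paralogue group, had 0.109 FPKM in live cells and was listed at 0 in processed cells.

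HOXB1 is known for an autoregulatory element just upstream, where HOXB1 and PBX bind as a pair. Its upstream bases are shown because the letters of the pair's site can be seen there, in a gene that was detected. The sequence is the RefSeq promoter entry of GRCh38.p14 without the part after the start, and an exact match places it at chr17:46608374-46608623 of GRCh37, minus strand. Capitals mark a match to TGATNNAT, a spelling of the PBX-HOX site searched on both strands, which begins at position -125 from the transcript start.
HOXB1: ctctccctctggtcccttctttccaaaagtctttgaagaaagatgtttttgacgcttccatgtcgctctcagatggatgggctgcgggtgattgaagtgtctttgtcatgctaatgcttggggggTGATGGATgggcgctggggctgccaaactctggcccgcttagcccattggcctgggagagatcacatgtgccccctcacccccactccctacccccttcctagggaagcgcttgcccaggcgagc
The table held 27 entries for 20 of the 39 members, 6 of the 10 detected ones among them. Of the 27 upstream windows, 3 held TGATNNAT, or 11.1%, against 6.47% of all 35116 windows of the same length. The 27 are not independent, since HOXA3 gave 7 of them and the HOXC4 and HOXC5 windows are identical. The difference in share was not tested. The other 2 were those of HOXA2, which was detected, and HOXD11, which was listed at 0 in both libraries.

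Paralogue 2 genes pattern the hindbrain and the second pharyngeal arch. HOXB2 (chr17:46618256-46623441, minus strand), a known target of HOXB1 in the hindbrain, had the highest FPKM of all members in live cells, 17.1 (15.9 to 18.2), and 7.66 FPKM (7.29 to 8.03) in processed cells. Its log2 ratio was -1.06 (-1.21 to -0.91), and with a pseudocount of 1 it was the only detected member past 2-fold. The range reaches across the 2-fold line, and dividing processed values by the median ratio of all genes, 0.932, brought the log2 ratio to -0.97. HOXA2 (chr7:27139721-27142430, minus strand), required for second-arch structures, had 3.80 FPKM (3.49 to 4.11) in live cells against 3.04 FPKM (2.76 to 3.32) in processed cells. Its bounds were separate with the live library higher, at a log2 ratio of -0.25 (-0.44 to -0.05).

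Among the 20 members with a promoter entry, HOXA2 was the only one whose upstream window held both the PBX-HOX letters and TGACAG. The letters TGACAG are those bound by MEIS proteins, and the HOXA2 window is shown because it held both. The window lies at chr7:27142303-27142552 of GRCh37, minus strand, from RefSeq as above. Capitals mark the match to TGATNNAT on the reverse strand at position -114 and TGACAG at position -47.
HOXA2: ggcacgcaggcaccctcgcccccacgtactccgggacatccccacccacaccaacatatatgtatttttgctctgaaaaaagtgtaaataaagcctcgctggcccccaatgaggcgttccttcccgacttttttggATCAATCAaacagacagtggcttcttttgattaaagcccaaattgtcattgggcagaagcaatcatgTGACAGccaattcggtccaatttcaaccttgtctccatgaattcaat
TGACAG was present in 2 of the 27 HOX windows, or 7.41%, those of HOXA2 and HOXA4, against 13% of all windows. The matches are letters in a window and were not tested as binding sites.

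Paralogue 3 genes shape the pharyngeal pouches and the posterior hindbrain. HOXA3 (chr7:27145816-27192200, minus strand), needed for the thymus and parathyroid, had 16.7 FPKM (15.7 to 17.7) in live cells against 15.7 FPKM (14.3 to 17.1) in processed cells. Its bounds overlapped between the libraries at a log2 ratio of -0.09, whose sign turned to 0.01 after division by the median ratio. HOXB3 (chr17:46626232-46682274, minus strand) had 3.43 FPKM (3.03 to 3.83) in live cells against 5.04 FPKM (4.55 to 5.53) in processed cells. It went the other way from its neighbours HOXB1 and HOXB2, with the processed library higher at a log2 ratio of 0.45 (0.20 to 0.70). HOXD3 had 0.00646 FPKM in live cells and a vanishing value in processed cells.

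Of the paralogue 4 and 5 genes, those of HOXC and HOXA were detected. HOXC4 (chr12:54410715-54449814, plus strand) had 6.13 FPKM (5.72 to 6.53) in live cells against 7.56 FPKM (7.09 to 8.03) in processed cells, separate bounds with the processed library higher and a log2 ratio of 0.26 (0.10 to 0.43). HOXC5 (chr12:54379629-54429145, plus strand) had 1.02 FPKM (0.724 to 1.31) and 1.33 FPKM (1.13 to 1.52), and its bounds overlapped. The RefSeq promoter entries of HOXC4 and HOXC5 hold the same window, so in RefSeq transcripts of both can begin at the same base. Their spans in the files overlap but start at different bases, and use of the common start was not tested. The shared upstream bases are shown for the start that RefSeq gives both genes. They lie at chr12:54410422-54410671 of GRCh37, plus strand, and neither motif was found in them.
HOXC4 and HOXC5: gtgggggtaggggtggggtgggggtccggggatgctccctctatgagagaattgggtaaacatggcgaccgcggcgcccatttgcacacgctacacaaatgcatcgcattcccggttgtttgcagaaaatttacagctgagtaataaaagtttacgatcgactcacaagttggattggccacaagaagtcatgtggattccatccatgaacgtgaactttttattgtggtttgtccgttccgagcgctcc

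HOXA4 (chr7:27168126-27170418, minus strand) had 2.84 FPKM (2.42 to 3.27) in live cells against 1.56 FPKM (1.22 to 1.89) in processed cells, a log2 ratio of -0.59 (-0.94 to -0.24). HOXA5 (chr7:27180671-27183287, minus strand), which is required for lung development, had 1.24 FPKM (1.06 to 1.43) in live cells against 0.464 FPKM (0.347 to 0.581) in processed cells. Both were higher in the live library with separate bounds, and HOXA5 was the only detected member that stayed under 1 FPKM in a library. The log2 ratio of HOXA5 was -0.62 (-0.85 to -0.38), and with a pseudocount of 0.1 in place of 1 it was -1.25, past 2-fold. HOXB4, known from blood stem cells, had 0.181 FPKM in live cells against 0.364 FPKM in processed cells, and HOXD4 had 0.260 and 0.00317 FPKM.

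Ordered by level in live cells, HOXB2 and HOXA3 led with overlapping bounds, and HOXC4 stood below them with separate bounds. HOXB1, HOXA2, HOXB3 and HOXA4 formed the next run, each overlapping the next, and HOXA5 and HOXC5 came last with overlapping bounds. In processed cells HOXA3 stood alone at the top, HOXB2 and HOXC4 overlapped below it, HOXB3 came after them, and further down HOXA2 overlapped with HOXB1 and, at the end, HOXA4 with HOXC5. HOXA3 ranked 5407th in live and 5438th in processed cells among all 55797 genes by FPKM, and HOXB2 ranked 5314th and 8864th. Pearson's r of log2(FPKM + 1) between the libraries was 0.91 over the 10 detected members, given as a description without a test.

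Of the 10 detected members, 7 were lower and 3 were higher in processed cells, the 3 being HOXB3, HOXC4 and HOXC5. Among the 17326 genes with 1 FPKM or more in either library, 58.3% were lower and 41.7% higher in processed cells. Past 2-fold, 0 members were higher and 1 was lower, against 6.57% and 6.19% of those genes. The median log2 ratio of the members was -0.27 and that of all genes -0.09. Bounds were separate for 8 of the 10 members, against 71.8% of the genes. Summed over the 39 members, HOX FPKM came to 65.6 (live) and 51.9 (processed), 0.791 times the live value. Without HOXB2, left out after its values were seen, the sums were 48.5 and 44.2, or 0.911 times. Summed HOXC FPKM was the higher in processed cells, at 9.36 against 7.81. For these differences, the share of expressing cells, RNA per cell, handling, extraction kit and fragment assignment cannot be told apart in a mixed culture.

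**Figure D2:**
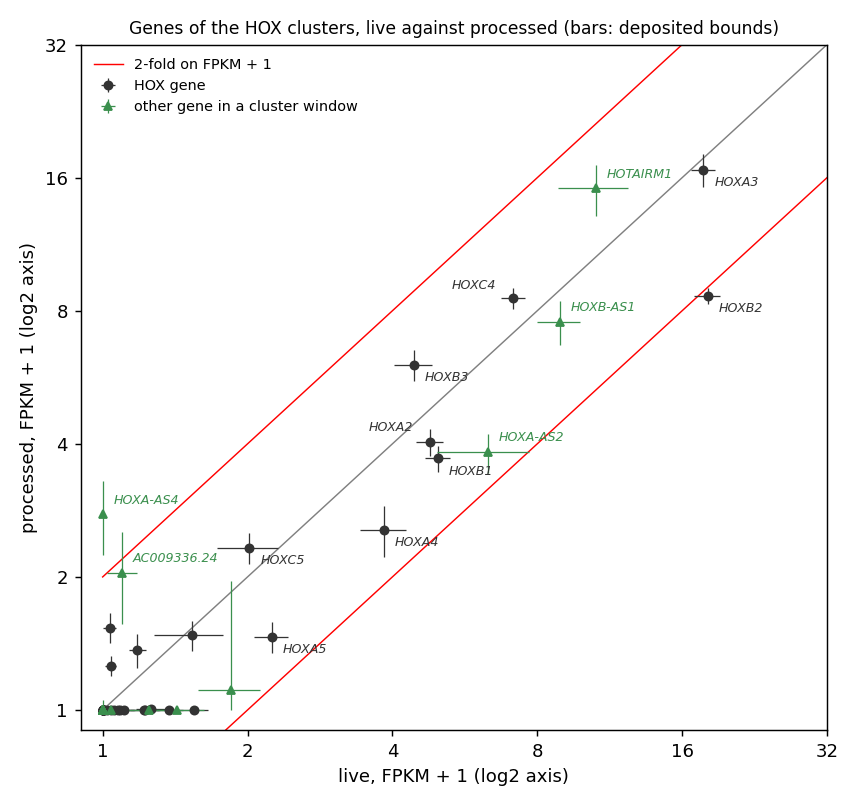
Processed against live FPKM + 1, both on log2 axes, for 38 HOX genes (black circles) and the 41 other genes that lie in the cluster windows (green triangles), with deposited bounds as bars, equality in grey and 2-fold lines in red. HOXB2 sits on the lower 2-fold line, and HOXA-AS4 lies above the upper one, at 0 FPKM in live cells.

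The HOXA cluster held 48.1% (43.7 to 52.7) of the summed HOX FPKM in live cells and 50.02% (45.6 to 54.4) in processed cells. In live cells its range overlapped that of HOXB, and without HOXA3 the HOXB share was the larger in both libraries. HOXB held 39.4% (35.2 to 43.8) and 31.9% (28.3 to 35.8), and HOXC held 11.9% (9.76 to 14.3) and 18.0% (15.6 to 20.7). Only the HOXC ranges were separate between the libraries among HOXA, HOXB and HOXC. HOXD held 0.572% (0.322 to 0.876) in live cells and 0.00610% (0 to 0.0244) in processed cells, ranges that were separate as well. That separation rests on values below 1 FPKM. Of the 9 HOXD members, 7 were listed at 0 in processed cells with bounds of 0 to 0, which narrows the processed range by construction. Paralogues 1 to 3, the most anterior class, made up 78.8% of the sum in live and 75.8% in processed cells, paralogues 4 to 8 made up 20.9% and 23.7%, and paralogues 9 to 13 made up 0.352% and 0.501%.

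**Figure D3:**
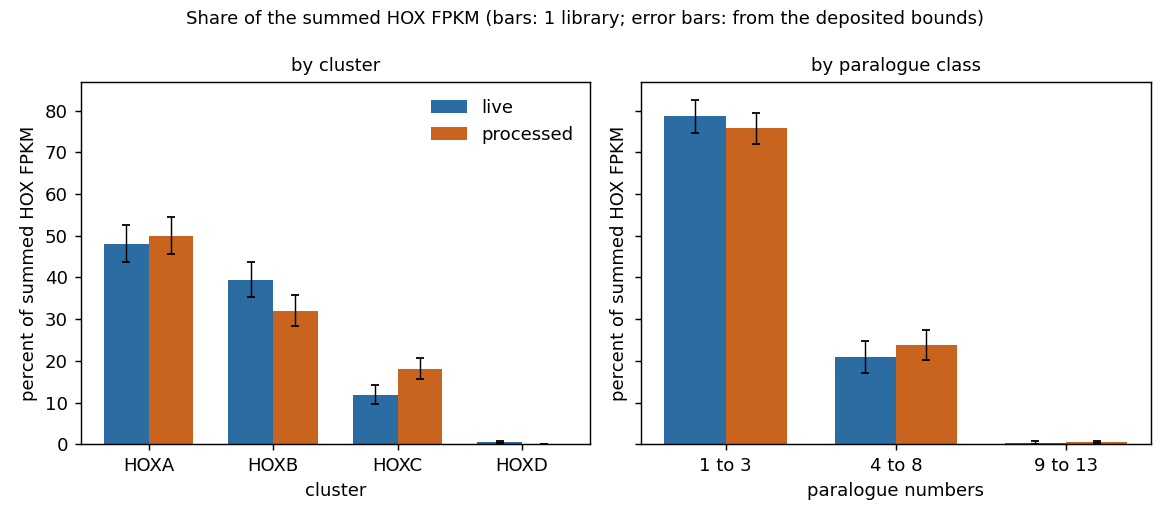
Percent of the summed HOX FPKM (y axis) by cluster (left) and by paralogue numbers (right), with 1 bar per library and error bars taken from the deposited bounds. HOXA and HOXB hold the larger shares, with overlapping ranges in live cells, and paralogues 1 to 3 hold 78.8% in live and 75.8% in processed cells.

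The other 29 members were below 1 FPKM in both libraries. Of these, 13 were listed at 0 in both: HOXA10, HOXA11, HOXB13, HOXC8, HOXC9, HOXC10, HOXC12, and HOXD8 to HOXD13. Apart from HOXC8 and HOXD8, of the central class, they are posterior genes, which act in regions such as the limbs, hindgut and urogenital tract. The remaining 16 had up to 0.545 FPKM. Of the 16, 9 were listed at 0 in processed cells, namely HOXA6, HOXA7, HOXA13, HOXB5, HOXB6, HOXB7, HOXC11, HOXC13 and HOXD1, against 37.9% of all genes above 0 and below 1 FPKM in live cells. Restricted to live values from 0.1 to below 1 FPKM, 5 of 8 members were listed at 0 in processed cells, against 26.3% of genes. No member was above 0 in processed cells alone, and the share of all genes for that direction was not computed. Over all 55797 genes, 26176 were listed at 0 in live cells and 30569 in processed cells, so zeros were more frequent in the processed library as a whole.

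Among HOXB5 to HOXB8, of the central class, and HOXB9, of the posterior class, low values differed between neighbours. HOXB5, HOXB6 and HOXB7 had 0.545, 0.373 and 0.226 FPKM in live cells and were each listed at 0 in processed cells. HOXB8 and HOXB9, next to them, had 0.0333 and 0.0394 FPKM in live cells and 0.535 and 0.260 FPKM in processed cells. The live value of HOXB5 equals 54.4 fragments per kb and the processed value of HOXB8 49.8 fragments per kb. From HOXB5 to HOXB9, FPKM summed to 1.22 in live and 0.795 in processed cells. The row RP11-357H14.19 overlaps HOXB7, HOXB8 and HOXB9 and had 0.00286 FPKM in live and a vanishing value in processed cells. ATF6B, a gene in broad use, was listed at 19.0 FPKM in live cells and at 0 in processed cells, and whether a listed 0 is a failed estimate was not tested, for it or for the HOXB genes.

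Fragments of neighbouring HOX genes are hard to assign. By position, 9 of the 10 detected members overlapped another gene row and 6 overlapped another member, HOXB1 being the exception. HOXA3 overlapped HOXA4, HOXA5 and HOXA6, and HOXB3 overlapped HOXB4, HOXB5 and HOXB6. HOXC5 overlapped HOXC4, HOXC6, HOXC8, HOXC9 and HOXC10. The sources used here do not say that counting used strand, so a HOX gene and an antisense transcript over it cannot be told apart with certainty. Of the 39 identifiers, 38 were found in the later annotation that gave strand and gene type.

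The cluster windows held 41 other gene rows, mostly antisense long noncoding RNAs, microRNA genes and pseudogenes. Of these, 23 were listed at 0 in both libraries, among them HOTAIR, the noncoding RNA of the HOXC cluster, and the microRNA genes MIR10A, MIR10B, MIR196A1, MIR196A2 and MIR196B, whose status was LOWDATA in both libraries. The 5 that reached 1 FPKM included 1 past 2-fold higher and 0 past 2-fold lower, beside the 6.57% and 6.19% of all genes. HOTAIRM1, a noncoding RNA of the HOXA cluster on the strand opposite to its HOX genes, had 9.60 FPKM (7.82 to 11.4) in live cells against 14.1 FPKM (12.1 to 16.1) in processed cells. It was the row with the highest value among the 41 in both libraries, and it was higher in processed cells whereas HOXA2, which it overlaps by position, was lower.

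HOXB-AS1, antisense to HOXB2 and HOXB3, had 7.90 FPKM (7.0 to 8.81) in live cells against 6.56 FPKM (5.71 to 7.42) in processed cells, and its bounds overlapped. HOXA-AS2, antisense to HOXA3 and HOXA4, had 5.31 FPKM (3.95 to 6.68) and 2.83 FPKM (2.45 to 3.21), a log2 ratio of -0.72 with separate bounds. In each case the live library was the higher. HOXA-AS4, which overlaps HOXA9 and HOXA10, was listed at 0 in live cells and had 1.77 FPKM (1.24 to 2.30) in processed cells, although HOXA10 was listed at 0 in both. In the HOXD window, AC009336.24 had 0.0981 FPKM in live cells against 1.04 FPKM in processed cells, and HOXD-AS1, which overlaps it, had 0.852 FPKM (0.579 to 1.13) and 0.108 FPKM (0 to 0.958), with overlapping bounds. HOXA-AS4 and AC009336.24 were thus detected in the processed library alone.

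The TALE homeodomain proteins PBX, MEIS and PKNOX are the DNA-binding partners of HOX proteins, and all 9 of their genes were detected in both libraries. PBX2 had 75.0 FPKM in live cells against 68.2 FPKM in processed cells, and PBX3 had 25.8 and 28.8 FPKM. MEIS1 had 47.7 and 39.1 FPKM, MEIS2 39.7 and 39.2 FPKM, and MEIS3 10.2 and 8.94 FPKM. In live cells PBX2, PBX3, MEIS1 and MEIS2 were each above the highest HOX gene. PKNOX2 had 12.0 FPKM (11.3 to 12.7) in live cells against 24.8 FPKM (22.9 to 26.8) in processed cells, PKNOX1 had 7.69 and 4.39 FPKM, and PBX4 had 1.28 and 2.72 FPKM. The 2 PKNOX genes differed in opposite directions with separate bounds, at log2 ratios of 0.99 and -0.69. Of the 9 genes, 3 were higher and 6 lower in processed cells, 0 were past 2-fold, and the median log2 ratio was -0.13, beside 41.7% of all genes higher, 58.3% lower, and 6.57% and 6.19% past 2-fold higher and lower. PKNOX2 lay just inside the line and passed it, at 1.09, after division by the median ratio; MEIS2, at -0.02, turned to 0.08, and to 0.01 after rescaling to the same sum.

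Of 19 genes of the retinoic acid pathway, 16 were detected in live and 17 in processed cells. CRABP1 and CRABP2, which carry retinoic acid in the cell, had 267 and 230 FPKM in live cells and 230 and 180 FPKM in processed cells. ALDH1A1, an enzyme that makes retinoic acid, had 62.1 and 54.4 FPKM, and DHRS3, which reduces retinal, had 44.2 and 64.5 FPKM. Among the receptors, RXRA had 26.9 and 22.4 FPKM, RXRB 14.4 and 13.9 FPKM, a difference whose sign turned after division by the median ratio, and RARA 16.99 and 21.0 FPKM. STRA6, the membrane receptor for retinol uptake, had 12.9 and 11.6 FPKM. RBP4, the plasma carrier of retinol, was the 1 gene past 2-fold, with 6.51 FPKM (5.95 to 7.07) in live cells against 16.4 FPKM (14.3 to 18.5) in processed cells. Of the 17 genes detected in either library, 7 were higher and 10 lower after processing, and the median log2 ratio was -0.14. These counts lie near the shares of all genes, 41.7% higher and 58.3% lower, with 6.57% past 2-fold higher.

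**Figure D4:**
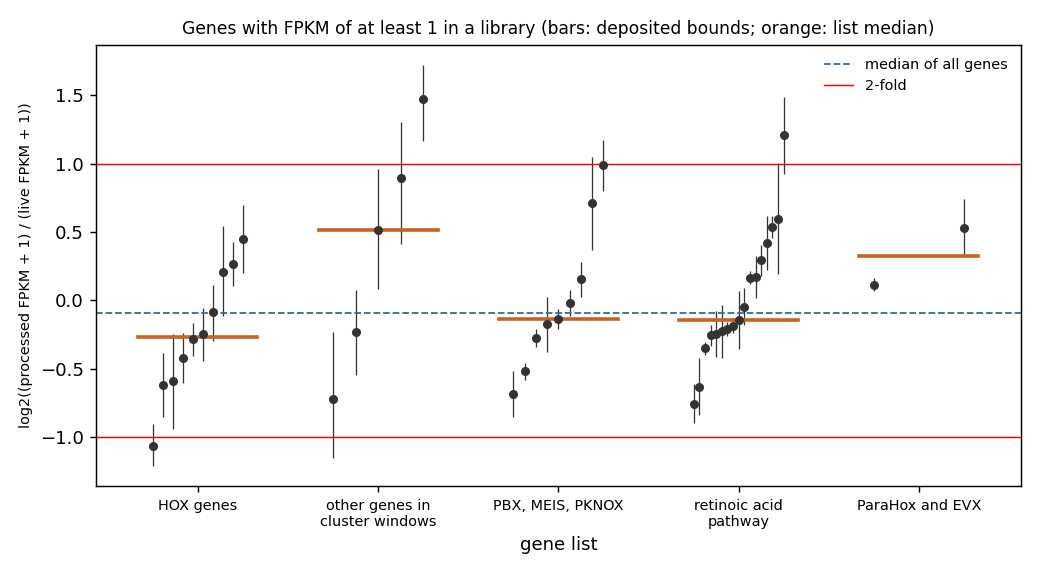
Log2((processed FPKM + 1) / (live FPKM + 1)) on the y axis for genes with 1 FPKM or more in either library, in 5 lists along the x axis, with bars from the deposited bounds, list medians in orange, the median of all genes dashed and 2-fold lines in red. The HOX median is -0.27, the PBX, MEIS and PKNOX median -0.13 and the retinoic acid median -0.14, and the median of all genes is -0.09.

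Of the ParaHox and EVX genes, relatives and neighbours of the clusters, PDX1 had 66.5 FPKM (65.4 to 67.6) in live cells against 72.1 FPKM (70.9 to 73.3) in processed cells. CDX2, which marks posterior gut and activates HOX genes, had 14.1 FPKM (13.01 to 15.3) and 20.9 FPKM (19.4 to 22.4). Both were higher in processed cells with separate bounds. CDX1 had 0.588 and 0.428 FPKM, and EVX1, beside the posterior end of HOXA, had 0.286 and 0.00810 FPKM. EVX2, beside HOXD13, had 0.0247 FPKM in live cells and was listed at 0 in processed cells, and GSX1, GSX2 and CDX4 were listed at 0 in both libraries.

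All 15 pancreatic and endocrine markers examined, such as PDX1, NKX6-1, INS and GCG, reached 1 FPKM in both libraries, although CHGA had status FAIL in processed cells. Other cell types that express HOX genes could be present too, and summed marker levels in live and processed cells were 101 and 102 FPKM for 12 mesenchyme genes, 234 and 203 FPKM for 10 neural genes, 210 and 171 FPKM for 6 pluripotency genes and 19.2 and 25.9 FPKM for 4 hindgut genes. None of these markers was listed at 0. Of 11 mesenchyme markers at 1 FPKM in either library, DCN, POSTN, TWIST1 and TWIST2 were past 2-fold higher and PDGFRB past 2-fold lower in processed cells, beside 6.57% and 6.19% of all genes. Of 6 pluripotency markers, NANOG was past 2-fold higher and TDGF1 past 2-fold lower. Which cells carried the HOX RNA, and the part of these markers in the HOX differences, was not tested.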

How the data were processed

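Paired reads (80 nt) had been mapped by the authors with STAR 2.2.0c to hg19, guided by GENCODE release 14. They deposited a gene-level FPKM with bounds and a status; their processing notes name Cufflinks 2.0.2 and the methods Cuffdiff. Counts were not used here, and which fragments scale the deposited FPKM is not given in the sources used here.

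The tables were joined by gene identifier with pandas 2.3.3, numpy 2.4.6 and scipy 1.17.1 under Python 3.11.15. Starts, counted from 0 in the files, were raised by 1. Strand and gene type came from GENCODE release 44 on GRCh37. The fragment step used genes of a single transcript over 300 nt, less 170 nt. The ratio calculation was tested on simulated data. Members and lists were chosen with earlier results of these data known. The rule named all members; window genes reaching 1 FPKM; all PBX, MEIS, PKNOX, ParaHox and EVX genes; retinoic acid genes reaching 10 FPKM or past 2-fold; and the nearest flanking genes at 1 FPKM in both libraries. HOXD-AS1, RP11-357H14.19, ATF6B, the window genes named at 0 and the markers past 2-fold were named after their values were seen. Some members and list genes that enter the counts, sums and medians are not reported here.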

Additional observations from a re-analysis of the deposited data

How the results depend on the processing

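With 1 library per group, no value has replicate error and none could be left out. No paired analysis was possible because each group has 1 library. The number of detected members followed the level required: at 0.1 FPKM it was 18 in live and 14 in processed cells, at 10 FPKM 2 and 1, and above 0 it was 26 and 17. Members past 2-fold lower numbered 2 with a pseudocount of 0.1 and 2 with 0.01, HOXA5 joining HOXB2, and 0 after division by the median ratio. The HOX median log2 ratio was -0.0093 without a filter, where 13 members at 0 in both libraries entered, and -0.57 at 10 FPKM, where 2 remained. Bounds were separate for 21 members without a filter. That count takes in members listed at 0 in processed cells with bounds of 0 to 0, which are separate from any range above 0. The share of all genes under that setting was not computed. Without HOXA3, the member with the highest mean, the live and processed shares were 30.4% and 28.4% for HOXA, 52.9% and 45.7% for HOXB, 16.0% and 25.9% for HOXC, 71.5% and 65.4% for paralogues 1 to 3 and 28.0% and 33.9% for paralogues 4 to 8, and that of paralogues 9 to 13 in processed cells was 0.717%. HOXB was then the largest cluster share in both libraries. With detected members alone, paralogues 9 to 13 had 0% in both libraries and HOXD had 0% in live cells. With a pseudocount of 0.1, 2 window genes, 2 PBX, MEIS and PKNOX genes and 2 retinoic acid genes were past 2-fold higher, and after division by the median ratio 1 PBX, MEIS or PKNOX gene was. The other 76 of 106 alternative values stayed within the bounds or within 1.5 times the count, but part of these could not move. Shares recomputed from the lower or the upper bounds lie within the share range by construction. All members had status OK, so that filter changed nothing. With a pseudocount of 1, a gene below 1 FPKM in both libraries cannot pass 2-fold, so removing the filter added none. Of 136 alternative log2 ratios of 34 named genes, 119 stayed within the bounds and 4 changed sign, in HOXA3, MEIS2 and RXRB. The 2-fold call changed in 11 of the 136, in HOXA5, HOXB2, AC009336.24, PKNOX2 and PBX4. Over all genes, 1138 were past 2-fold higher and 1072 lower, 1715 and 1753 with a pseudocount of 0.1, 1773 and 1827 with 0.01, 426 and 336 with 1 FPKM required in both libraries, and 255 and 172 with 10 FPKM required.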

Other observations

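Beyond the clusters, the nearest genes with 1 FPKM or more in both libraries were as follows. They lay from 9.95 kb (AC016739.2) to 405 kb (SNX11) away from the cluster windows. Beside HOXA, SKAP2 had 8.77 FPKM (8.22 to 9.32) in live and 6.25 FPKM (5.95 to 6.56) in processed cells, and the pseudogene AC073150.4 had 67.2 and 51.6 FPKM. Beside HOXB, SNX11 had 7.92 and 6.09 FPKM and CALCOCO2 had 15.1 and 12.3 FPKM. Beside HOXC, CALCOCO1 had 19.0 FPKM (18.2 to 19.9) and 21.3 FPKM (20.3 to 22.2), and the pseudogene RP11-834C11.7 had 4.23 FPKM (3.54 to 4.92) and 12.6 FPKM (9.84 to 15.3). Beside HOXD, KIAA1715 had 9.78 FPKM (9.03 to 10.5) and 4.46 FPKM (4.22 to 4.70), and the pseudogene AC016739.2, 9.95 kb from HOXD1, had 110 and 94.4 FPKM. In processed cells the genes named for HOXC were higher and those named for HOXA, HOXB and HOXD lower. Among all genes with 1 FPKM or more in either library, 41.7% were higher and 58.3% lower. The flanking genes are only 8 genes in 1 pair of libraries, listed as values without a test.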
